A study of Laccaria bicolor with 37 samples.

Results

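Gene models 293826 and 318727 are the clitocypins that the study of the ectomycorrhizal fungus *Laccaria bicolor* named for higher transcript levels both in ectomycorrhiza and in fruiting bodies. Fruiting bodies were not analysed here. The pair was taken by its identifiers and makes up 2 of the 23130 gene models measured. Both were among the 15533 gene models with enough counts to be tested. The study annotated 6 further gene models as clitocypins, and these are described beside the pair.

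Clitocypins are small cysteine protease inhibitors of mushroom-forming fungi, first known from the clouded agaric, *Clitocybe nebularis*. Proteins of this kind bind to papain-like peptidases, and some also block legumain, an asparaginyl endopeptidase found in plants and animals. Roles proposed for them in mushrooms are defence against animals that feed on the fruiting body and control of the fungus's own proteolysis. An ectomycorrhiza is the organ that such a fungus forms with a tree root: hyphae wrap the root tip in a mantle and grow between its outer cells, where both partners exchange nutrients.

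Strain S238N was grown with *Populus tremula x alba* in a sandwich of cellophane membranes on agar. EcM stands for what was collected next to the roots, hyphae together with root tissue, ExM (extramatrical mycelium) for hyphae of co-cultures that grew away from the roots, and FLM (free-living mycelium) came from plates handled alike without a plant. EcM, ExM and FLM were sampled 3, 7, 14 and 21 days post-inoculation (dpi), and FLM also at day 0, with 3 libraries in each of the 13 groups except ExM at 14 dpi and FLM at day 0 with 2 libraries. The labels number the libraries of a group, and the study calls them biological replicates. All groups carried the same fungal strain on the same medium, and EcM is defined by distance to a root, so it also holds hyphae that are not part of a mantle.

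Library totals lay between 13.8 and 36.8 megacounts of fungal gene models with a median of 20.7, so the floor of 3 counts was far under every value of the pair, whose lowest count was 24. The share of plant RNA was not measured here, and in bulk samples fewer cells of a kind and less RNA per cell cannot be told apart. Across all gene models 28 of the 37 libraries were most like another library of their own group. The exceptions included both FLM libraries of day 0 and FLM replicate 2 of 21 dpi, which was most like an FLM library of 14 dpi. At 7 dpi EcM replicate 1 was most like an ExM library, and ExM replicate 1 was most like an EcM library. At 3 dpi ExM replicates 1 and 2 were most like EcM libraries. The comparisons of these days rest in part on such libraries. Levels are given in counts per megacount (CPM) after scaling of the libraries by the trimmed mean of M values (TMM). To be called, a gene model had to change by 1 or more on the log2 scale and to reach an adjusted p (Benjamini-Hochberg, over all tested gene models) below 0.05 in edgeR's quasi-likelihood test. All adjusted p-values below come from this test unless another tool is named.

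Both gene models were low early and high late, but in different groups. 293826 had its highest mean in EcM at 14 dpi, a day on which ExM and FLM were still low, and at 21 dpi the 3 kinds of mycelium overlapped. 318727 had means under 13 CPM up to 14 dpi in every kind of mycelium and was highest in ExM at 21 dpi. In the order of group means, 293826 averaged 341 ± 85.6 CPM in EcM at 14 dpi, followed by 143 ± 39.3 CPM in ExM, 132 ± 24.3 CPM in EcM and 123 ± 111 CPM in FLM at 21 dpi (SD, n = 3 each). The libraries of the last 3 groups overlapped, whereas the lowest EcM library of 14 dpi, at 242 CPM, was reached by 1 library of the other groups, an FLM library of 21 dpi at 243 CPM.

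For 318727 the order began with ExM at 21 dpi at 190 ± 85.3 CPM, then EcM at 70.6 ± 39.6 CPM and FLM at 53.6 ± 34.9 CPM on the same day, and EcM at 14 dpi at 12.6 ± 3.25 CPM (SD, n = 3 each). ExM at 21 dpi lay above the libraries of EcM at 21 dpi, and these overlapped those of FLM at 21 dpi. The remaining 9 groups had means between 3.10 and 5.81 CPM. Among these groups neighbours in the order overlapped.

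**Figure D1:**
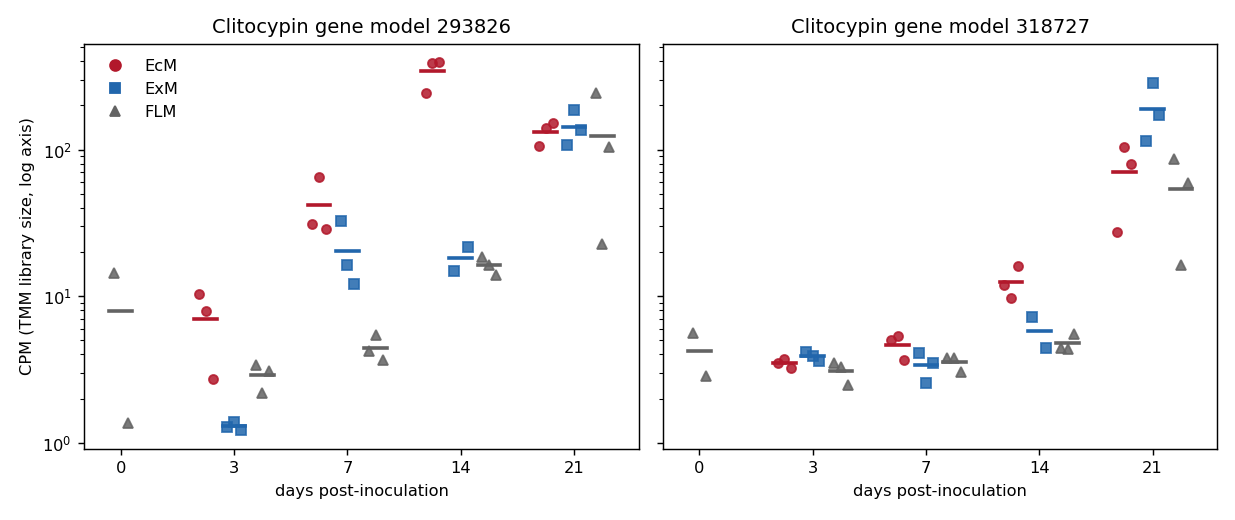
Levels of clitocypin gene models 293826 (left) and 318727 (right) in CPM on a log axis, by days post-inoculation. Points are libraries and bars are group means for EcM (circles), ExM (squares) and FLM (triangles). 293826 is highest in EcM at 14 dpi, with a mean of 341 CPM, and 318727 in ExM at 21 dpi, with a mean of 190 CPM.

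Set against all gene models, both changed from minor to abundant transcripts. Per transcript length, 293826 ranked 12615 of the 13586 gene models with a known length in ExM at 3 dpi and 131 in EcM at 14 dpi, where 0.957% of them were higher. 318727 ranked 10844 in ExM at 7 dpi and 294 in ExM at 21 dpi, where 2.16% were higher.

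The comparison of EcM with FLM asks how the transcript level near the root differed from that of a plate of the same age without a plant. The choice of both gene models by the study rested in part on EcM at 14 dpi in these same libraries, beside fruiting bodies, so their calls on that day are not independent evidence. The study also cites earlier work that had reported these clitocypins as strongly raised in ectomycorrhiza and fruiting bodies. That work was not examined here. At 3 dpi 293826 had 10.4, 7.91 and 2.73 CPM in EcM, against 3.41, 2.18 and 3.09 CPM in FLM. The third EcM library lay inside the FLM range, and the log2 fold change of 1.32 ± 0.72 (SE) was not called (adjusted p = 0.335). In this comparison 1.93% of all tested gene models were called, 300 in number, and leaving out single libraries gave 112 to 370. The shares given with several other comparisons moved in the same way with single libraries.

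At 7 dpi 293826 had 31.1, 64.8 and 28.9 CPM in EcM, against 4.25, 5.45 and 3.69 CPM in FLM. Every EcM library lay above every FLM library, a 9.42-fold difference (log2 fold change 3.24 ± 0.67, adjusted p = 0.0023), in a comparison that called 3.92% of all gene models. At 14 dpi it had 242, 387 and 393 CPM in EcM, against 18.6, 16.2 and 14.0 CPM in FLM. The gap was 20.9-fold (log2 fold change 4.39 ± 0.67, adjusted p = 1.68e-05), where 6.8% of all gene models were called.

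At 21 dpi the difference was not detectable. 293826 had 105, 140 and 152 CPM in EcM, against 243, 22.5 and 105 CPM in FLM, and the log2 fold change was 0.10 ± 0.58 (adjusted p = 0.913, 5.63% of all gene models called). The FLM libraries spanned the whole EcM range, with replicate 2 at the low end. Without this library the log2 fold change was -0.38 (adjusted p = 0.61).

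318727 did not separate EcM from FLM before 14 dpi. At 3 dpi it had 3.49, 3.75 and 3.25 CPM in EcM, against 3.52, 3.29 and 2.49 CPM in FLM, and at 7 dpi 5.04, 5.33 and 3.66 CPM in EcM, against 3.79, 3.80 and 3.03 CPM in FLM. The log2 fold changes were 0.19 ± 0.54 and 0.41 ± 0.52 (adjusted p = 0.894 and 0.672), and the libraries overlapped on both days. At 14 dpi it had 11.9, 9.70 and 16.1 CPM in EcM, against 4.41, 4.35 and 5.55 CPM in FLM.

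All 3 EcM libraries of 14 dpi were above the FLM libraries in 318727, and the 2.65-fold difference was called (log2 fold change 1.41 ± 0.47, adjusted p = 0.0254). The call was lost without FLM replicate 1 (log2 fold change 1.37, adjusted p = 0.0706), FLM replicate 2 (1.35, adjusted p = 0.0804) or EcM replicate 3 (1.19, adjusted p = 0.0978). At 21 dpi 318727 had 27.2, 105 and 79.8 CPM in EcM, against 85.6, 16.4 and 58.8 CPM in FLM. These libraries overlapped, and the log2 fold change was 0.40 ± 0.41 (adjusted p = 0.49). It was -0.023 without FLM replicate 2 (adjusted p = 0.971).

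**Figure D2:**
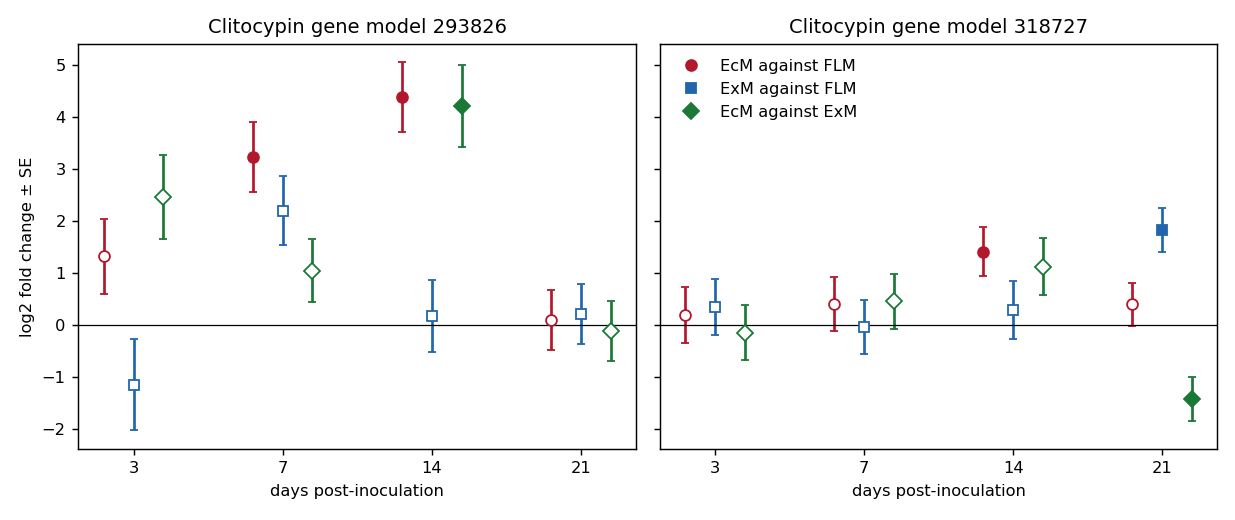
Log2 fold changes with standard errors of 293826 (left) and 318727 (right) for EcM against FLM (circles), ExM against FLM (squares) and EcM against ExM (diamonds) by days post-inoculation. Filled symbols mark called changes, open symbols those that were not. The largest values of 293826 are those of EcM at 14 dpi, 4.39 against FLM and 4.21 against ExM.

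ExM shared its plates with the plant but was taken away from the roots. At 3 dpi 293826 had 1.28, 1.38 and 1.21 CPM in ExM, against 3.41, 2.18 and 3.09 CPM in FLM. The ExM libraries were the lower ones without overlap, but the log2 fold change of -1.15 ± 0.88 was not called (adjusted p = 0.55, 1.52% of all gene models called). A fit to these 2 groups alone gave adjusted p = 0.046.

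At 7 dpi 293826 had 32.4, 16.3 and 12.1 CPM in ExM, against 4.25, 5.45 and 3.69 CPM in FLM. The groups did not overlap, and the log2 fold change of 2.19 ± 0.66 missed the threshold (adjusted p = 0.0553) in a comparison that called 2.02% of all gene models. DESeq2 called it, with a log2 fold change of 2.16 and an adjusted p of 0.0128. At 14 dpi the level was 14.9 and 21.7 CPM in ExM, against 18.6, 16.2 and 14.0 CPM in FLM.

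These ranges overlapped, with a log2 fold change in 293826 of 0.17 ± 0.69 (adjusted p = 0.998), and 0.0451% of all gene models were called. The plant effect in ExM at 14 dpi was thus not detectable for a gene model that differed 20.9-fold between EcM and FLM on the same day. At 21 dpi 293826 had 108, 186 and 136 CPM in ExM, against 243, 22.5 and 105 CPM in FLM. The libraries overlapped (log2 fold change 0.22 ± 0.58, adjusted p = 0.871, 1.65% of all gene models called).

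318727 differed between ExM and FLM on 1 of the 4 days. At 21 dpi it had 115, 283 and 172 CPM in ExM, against 85.6, 16.4 and 58.8 CPM in FLM. All ExM libraries were higher, by 3.54-fold on average (log2 fold change 1.83 ± 0.42, adjusted p = 0.00407). A fit to these 2 groups alone gave the same size of change without a call (1.82, adjusted p = 0.197).

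On the earlier days 318727 lay close to FLM. It had 4.17, 3.91 and 3.60 CPM in ExM at 3 dpi and 4.10, 2.54 and 3.51 CPM in ExM at 7 dpi. The log2 fold changes were 0.34 ± 0.53 (adjusted p = 0.8) and -0.045 ± 0.52 (adjusted p = 0.981). At 14 dpi ExM had 7.17 and 4.45 CPM, and the log2 fold change was 0.29 ± 0.56 (adjusted p = 0.998). The FLM values of these days are given above with EcM.

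EcM against ExM compares mycelium of co-cultures near the root with mycelium of co-cultures farther away. Whether libraries of both came from the same plates is not stated. For 293826 the EcM libraries lay above the ExM libraries without overlap at 3 dpi and at 14 dpi. The log2 fold change at 3 dpi was 2.47 ± 0.81 and was not called (unadjusted p = 0.00566, adjusted p = 1), in a comparison that called 0.0386% of all gene models. At 14 dpi, 242, 387 and 393 CPM in EcM stood against 14.9 and 21.7 CPM in ExM, an 18.6-fold difference (log2 fold change 4.21 ± 0.79, adjusted p = 0.000396, 5.61% of all gene models called).

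At 7 and 21 dpi the EcM and ExM libraries of 293826 overlapped. The log2 fold changes were 1.04 ± 0.60 (adjusted p = 0.624, 0.303% of all gene models called) and -0.11 ± 0.58 (adjusted p = 0.906, 4.39% called). 318727 had log2 fold changes of -0.15 ± 0.53 and 0.45 ± 0.53 at 3 and 7 dpi, with overlap on both days (adjusted p = 1 and 0.879). At 14 dpi the EcM libraries of 318727 were higher without overlap, at a log2 fold change of 1.12 ± 0.55 that was not called (adjusted p = 0.145). A fit to these 2 groups alone called it (1.14, adjusted p = 0.0133).

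At 21 dpi 318727 was lower in EcM than in ExM. It had 27.2, 105 and 79.8 CPM in EcM, against 115, 283 and 172 CPM in ExM, without overlap and with a log2 fold change of -1.43 ± 0.42 (adjusted p = 0.00916). The call was lost without ExM replicate 2 (-1.02, adjusted p = 0.0777), without EcM replicate 1 (-1.04, adjusted p = 0.058) and in a fit to these 2 groups alone (-1.44, adjusted p = 0.171). In the same fit with the replicate number as a block it was called (-1.51, adjusted p = 0.0378).

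Within EcM the level of 293826 rose at each step up to 14 dpi. It was 10.4, 7.91 and 2.73 CPM at 3 dpi, 31.1, 64.8 and 28.9 CPM at 7 dpi, 242, 387 and 393 CPM at 14 dpi and 105, 140 and 152 CPM at 21 dpi. No 2 consecutive days overlapped. The step to 7 dpi was 5.78-fold (log2 fold change 2.53 ± 0.65, adjusted p = 0.00485, 3.82% of all gene models called), and a fit to these 2 groups alone put it just past the threshold (2.54, adjusted p = 0.0516).

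The step of 293826 in EcM to 14 dpi was 8.2-fold (log2 fold change 3.04 ± 0.62, adjusted p = 0.000546), where 7.79% of all gene models were called. From there to 21 dpi the log2 fold change was -1.36 ± 0.58 and was not called (adjusted p = 0.114, 2.27% of all gene models called). A fit to these 2 groups alone called it (-1.36, adjusted p = 0.0253).

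318727 moved later in EcM. Its log2 fold change was 0.41 ± 0.53 from 3 to 7 dpi (adjusted p = 0.632), 1.44 ± 0.49 from 7 to 14 dpi (adjusted p = 0.0245) and 2.48 ± 0.45 from 14 to 21 dpi (adjusted p = 0.000397). The last of these was a 5.6-fold rise to 27.2, 105 and 79.8 CPM at 21 dpi, against 11.9, 9.70 and 16.1 CPM at 14 dpi, and a fit to these 2 groups alone gave adjusted p = 0.063. The middle step lost its call without EcM replicate 1 of 7 dpi (1.499, adjusted p = 0.0563), EcM replicate 3 of 7 dpi (1.29, adjusted p = 0.0863) or EcM replicate 3 of 14 dpi (1.22, adjusted p = 0.0961).

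Within ExM 293826 changed in separate steps. It rose 15.5-fold by 7 dpi, at 32.4, 16.3 and 12.1 CPM against 1.28, 1.38 and 1.21 CPM at 3 dpi (log2 fold change 3.96 ± 0.79, adjusted p = 0.000577, 3.14% of all gene models called). Between 7 and 14 dpi the log2 fold change was -0.14 ± 0.69 with overlap (adjusted p = 0.916, 4.05% of all gene models called). It then rose 7.81-fold, at 108, 186 and 136 CPM at 21 dpi against 14.9 and 21.7 CPM at 14 dpi (log2 fold change 2.97 ± 0.74, adjusted p = 0.00687, 3.88% of all gene models called). This last call was lost without ExM replicate 1 of 14 dpi (2.73, adjusted p = 0.111).

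The rise of 318727 in ExM fell into the last week. Its log2 fold changes were -0.19 ± 0.53 from 3 to 7 dpi and 0.77 ± 0.57 from 7 to 14 dpi (adjusted p = 0.843 and 0.371). At 21 dpi it had 115, 283 and 172 CPM, against 7.17 and 4.45 CPM at 14 dpi. This was the largest change of the gene model over the consecutive days, 32.7-fold (log2 fold change 5.03 ± 0.60, adjusted p = 3.85e-06).

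FLM followed the age of the culture without a plant. 293826 had 14.4 and 1.37 CPM at day 0, 3.41, 2.18 and 3.09 CPM at 3 dpi, 4.25, 5.45 and 3.69 CPM at 7 dpi, 18.6, 16.2 and 14.0 CPM at 14 dpi and 243, 22.5 and 105 CPM at 21 dpi. The day 0 libraries lay 1 on either side of those of 3 dpi, so that the change to 3 dpi was not determined (log2 fold change -1.39 ± 0.81, adjusted p = 0.613, 0.0451% of all gene models called, and 1.06 without FLM replicate 1 of day 0). From 3 to 7 dpi the log2 fold change was 0.61 ± 0.74 (adjusted p = 0.688, 1.42% of all gene models called).

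From 7 to 14 dpi 293826 rose 3.69-fold in FLM without overlap (log2 fold change 1.88 ± 0.66, adjusted p = 0.0344, 4.41% of all gene models called). This call did not hold without any single library of the 2 groups, when the log2 fold change lay between 1.72 (FLM replicate 3 of 7 dpi left out, adjusted p = 0.113) and 2.01 (FLM replicate 2 of 7 dpi left out, adjusted p = 0.0674). From 14 to 21 dpi it rose 7.57-fold (log2 fold change 2.92 ± 0.63, adjusted p = 0.000887, 5.67% of all gene models called). Without FLM replicate 1 of 21 dpi the log2 fold change was 1.97 (adjusted p = 0.0186).

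318727 in FLM had 5.63 and 2.87 CPM at day 0, 3.52, 3.29 and 2.49 CPM at 3 dpi, 3.79, 3.80 and 3.03 CPM at 7 dpi, 4.41, 4.35 and 5.55 CPM at 14 dpi and 85.6, 16.4 and 58.8 CPM at 21 dpi. The first 4 time points lay within a narrow range, and on the log2 scale consecutive ones differed by -0.43 ± 0.60, 0.20 ± 0.53 and 0.44 ± 0.50, none of them called (adjusted p = 0.89, 0.882 and 0.57). The last step was an 11.3-fold rise (log2 fold change 3.49 ± 0.48, adjusted p = 5.8e-06). It was present in all 3 libraries of 21 dpi, of which replicate 2 was the lowest, as it was for 293826.

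Whether the difference between EcM and FLM itself changed with time was tested as an interaction. For 293826 it was larger at 14 dpi than at 3 dpi by 3.07 ± 0.96 on the log2 scale (adjusted p = 0.0286, 5.94% of all gene models called), and lower at 21 dpi than at 14 dpi, by -4.28 ± 0.86 (adjusted p = 0.00445, 1.58% of all gene models called). Without FLM replicate 1 of 21 dpi the second value was -3.33 (adjusted p = 0.0249), and a fit to the 4 groups alone gave -4.31 (adjusted p = 0.0608). The first value lost its call when any of 6 of the 12 libraries was left out, with adjusted p up to 0.0655. These 6 libraries were FLM replicates 1 (2.99) and 3 (3.04) and EcM replicate 3 (2.74) of 3 dpi, and FLM replicate 3 (3.00) and EcM replicates 2 (2.97) and 3 (2.95) of 14 dpi. Both interactions contain the difference at 14 dpi, on which the study's choice of the pair rested in part. They are therefore not independent evidence of a change with time.

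For ExM the change of the effect in 293826 between 14 and 21 dpi was 0.044 ± 0.90 (adjusted p = 0.99, 1.15% of all gene models called). For 318727 edgeR and DESeq2 called 0 of these 3 interactions, and 1 had an unadjusted p under 0.05. They were 1.21 ± 0.72 for EcM at 14 against 3 dpi, -1.01 ± 0.63 for EcM at 21 against 14 dpi and 1.54 ± 0.70 for ExM at 21 against 14 dpi (adjusted p = 0.272, 0.379 and 0.242). A fit to the 4 groups alone called the first of them (1.22, adjusted p = 0.00571).

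The 2 gene models did not keep a fixed ratio, which can be compared per transcript length. In EcM 293826 made up 46.98 to 75.8% of the summed level of both at 3 dpi, 86.7 to 92.7% at 7 dpi, 95.5 to 97.7% at 14 dpi and 58.5 to 80.2% at 21 dpi. In ExM its share was 24.5 to 27.1% at 3 dpi, 78.3 to 89.3% at 7 dpi, 68.7 and 83.7% at 14 dpi and 40.9 to 49.8% at 21 dpi. In FLM it was 33.5 and 73.0% at day 0, 41.1 to 56.6% at 3 dpi, 54.1 to 60.1% at 7 dpi, 72.7 to 81.6% at 14 dpi and 59.1 to 74.9% at 21 dpi. 318727 was thus the larger part of the pair in every ExM library at 3 and 21 dpi, and a smaller part in EcM at 14 dpi than in any other group.

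**Figure D3:**
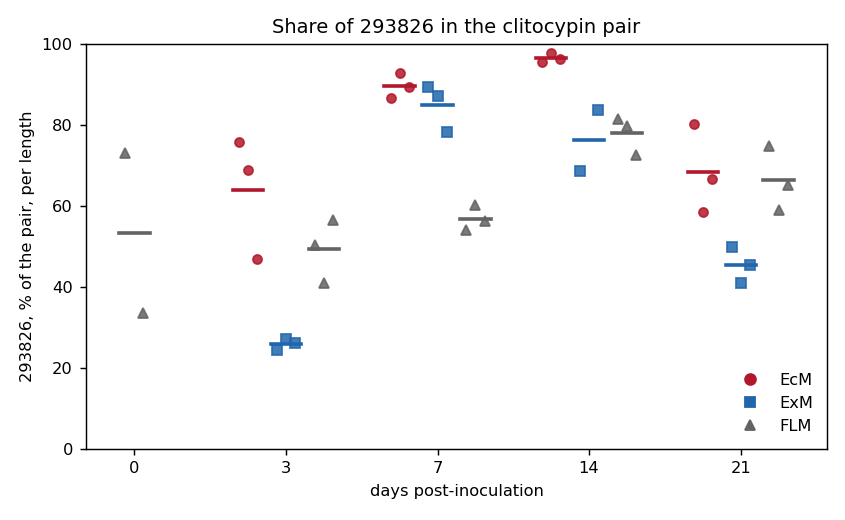
Share of 293826 in the summed transcript level of 293826 and 318727 per transcript length, in percent, by days post-inoculation. Points are libraries and bars are group means for EcM, ExM and FLM. The share is highest in EcM at 14 dpi, 95.5 to 97.7%, and lowest in ExM at 3 dpi, 24.5 to 27.1%.

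The other 6 clitocypins showed which parts of this pattern were common in the family. Of these, 311135, 326016, 382297 and 385833 were placed by the study in groups of genes chosen for their expression in these libraries, so their counts are not independent evidence of a direction. From 3 to 7 dpi all 6 rose in EcM, where 3.82% of all gene models were called and 2.43% as higher, with a median log2 fold change of 3.76 against 0.030 over all gene models. All 6 also rose in ExM, where 3.14% were called and 2.09% as higher, with a median of 3.46 against 0.021, whereas 318727 was not called at either step. In FLM 4 of 6 rose from 3 to 7 dpi, where 1.42% of all gene models were called and 0.599% as higher (median 2.01 against 0.0088 over all gene models). All 6 rose in FLM from 14 to 21 dpi, where 5.67% were called and 2.21% as higher (median 2.24 against 0.015). In ExM from 14 to 21 dpi, when both of the pair rose, edgeR called 0 of 6. An unadjusted p under 0.05 was found for 2 of them, and DESeq2 called 1. The median was 0.016 against 0.0037 over all gene models, of which 3.88% were called.

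Compared with FLM, 3 of the 6 were higher in EcM at 7 dpi, namely 311135 (log2 fold change 1.73, adjusted p = 0.00897), 382297 (1.95, adjusted p = 0.000176) and 385833 (1.72, adjusted p = 0.0173), in a comparison that called 3.92% of all gene models and 3.68% as higher. DESeq2 called 4 of 6, with 326016 in addition (1.65, adjusted p = 0.0254). At 14 dpi 3 of 6 were higher, 326016, 382297 (1.87, adjusted p = 2.23e-05) and 602958 (3.27, adjusted p = 0.000579), and 326015 was lower, where 4.03% of all gene models were called as higher and 2.77% as lower. The median over the 6 was 1.44 against -0.0094 over all gene models. At 3 dpi edgeR called 0 of 6 in EcM against FLM, with 0 at an unadjusted p under 0.05 and 0 by DESeq2, which is near the 1.93% called over all gene models. In ExM against FLM edgeR called 0 of 6 at 3 dpi and at 7 dpi, with 1 and 2 at an unadjusted p under 0.05 and 1 and 0 by DESeq2, near the 1.52% and 2.02% called over all gene models. At 14 dpi 382297 was higher in ExM (2.19, adjusted p = 0.00106). It was the 1 of 6 that edgeR called, where 0.0451% of all gene models were called. An unadjusted edgeR p under 0.05 was found for 4 of 6, against 943 of the 15533 tested. The median over the 6 was 1.77 in ExM against FLM, against 0.013 over all gene models. In EcM against ExM at 14 dpi 1 of 6 was higher and 1 lower, where 3.02% and 2.59% of all were. The median there was -0.48, against -0.022 over all gene models.

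**Figure D4:**
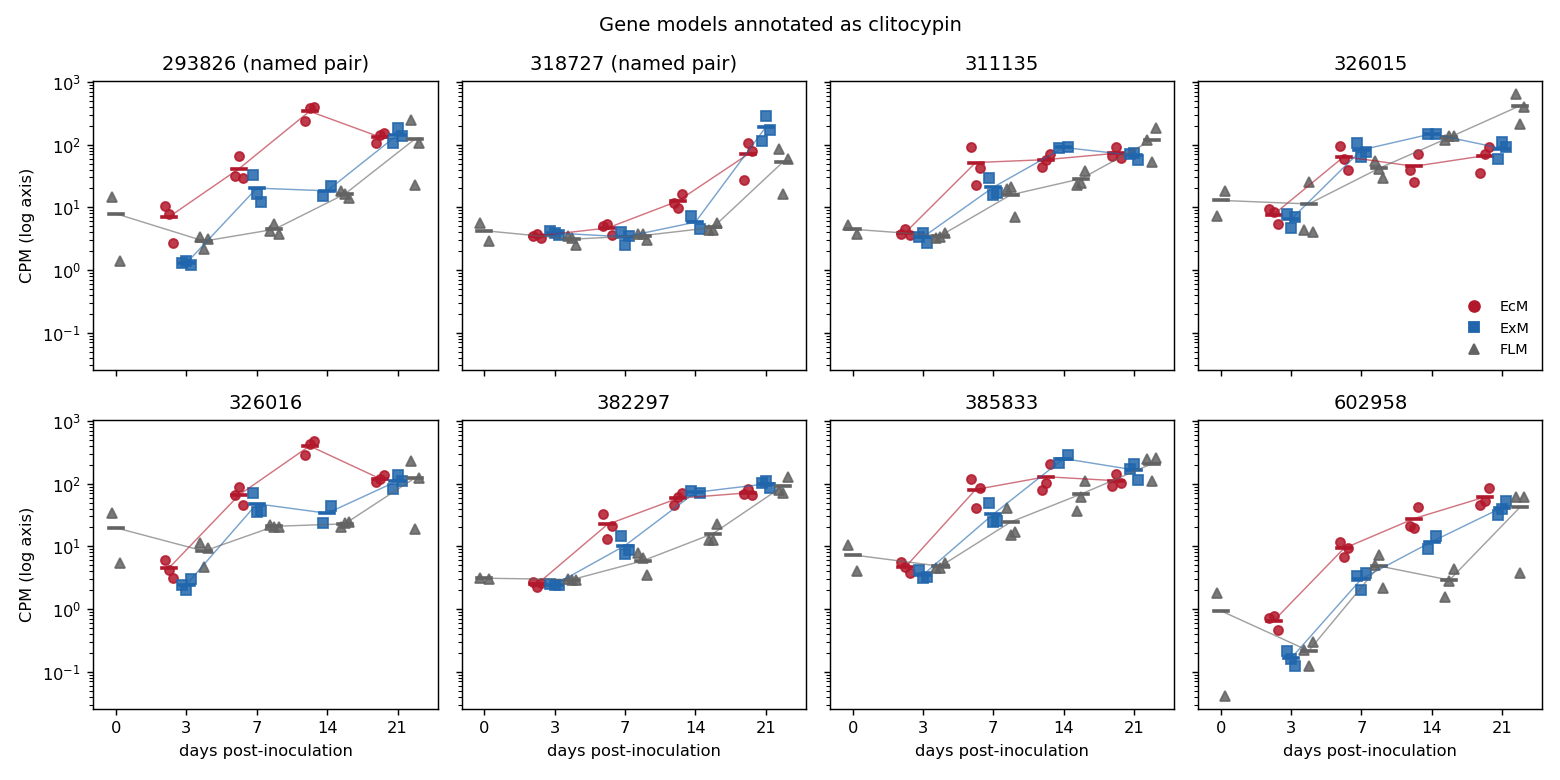
Levels of the 8 gene models annotated as clitocypin, in CPM on a log axis, by days post-inoculation. Points are libraries, bars are group means, and lines join the means of EcM, ExM and FLM. 326016, like 293826, is highest in EcM at 14 dpi, with a mean of 401 CPM, while 326015 is highest in FLM at 21 dpi, with a mean of 416 CPM.

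The clitocypin most like 293826 was 326016. It had 291, 431 and 480 CPM in EcM at 14 dpi, against 20.3, 23.7 and 24.6 CPM in FLM, with no overlap (log2 fold change 4.13 ± 0.62, adjusted p = 1.43e-05). Against 23.5 and 43.9 CPM in ExM its log2 fold change was 3.57 ± 0.71 (adjusted p = 0.000755). The step of 326016 in EcM from 14 to 21 dpi was called, at -1.73 ± 0.56 (adjusted p = 0.0332). Early on the courses differed. At 3 dpi 326016 averaged 4.50 CPM in EcM and 8.40 CPM in FLM, against 7.02 and 2.89 CPM for 293826. Neither difference was called.

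Clitocypin 326015 differed from the pair in direction. It had 38.9, 25.7 and 70.8 CPM in EcM at 14 dpi, against 119, 136 and 137 CPM in FLM (log2 fold change -1.53 ± 0.54, adjusted p = 0.0335). At 21 dpi it had 35.8, 71.4 and 93.1 CPM in EcM and 58.2, 109 and 92.9 CPM in ExM, against 639, 212 and 397 CPM in FLM. The log2 fold changes against FLM were -2.63 ± 0.56 for EcM (adjusted p = 0.000614) and -2.26 ± 0.55 for ExM (adjusted p = 0.00628). In each of these comparisons every library of the co-cultures lay below every FLM library.

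Summed over all 8 clitocypins and taken per transcript length, the level at 14 dpi was 1979 ± 542 CPM per kilobase in EcM (SD, n = 3) and 1277 ± 145 CPM per kilobase in ExM (SD, n = 2), against 584 ± 122 CPM per kilobase in FLM (SD, n = 3). At 21 dpi the sums were 1359 ± 266 CPM per kilobase in EcM, 1696 ± 380 CPM per kilobase in ExM and 2331 ± 1185 CPM per kilobase in FLM (SD, n = 3 each). In EcM at 14 dpi 293826 gave 26.3 to 32.6% of the sum and 326016 gave 34.8 to 39.3%. In FLM on the same day 293826 gave 3.30 to 6.59% and 326015 gave 39.9 to 52.3%.

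In the order of genes on the reference assembly V1.0 of the species, 5 of the 8 clitocypins were found by their locus tags. From 318727, the neighbouring genes 326015 and 326016 lie 36 and 37 places further, and 293826 lies 45 places further, with 44 genes between the pair, while 311135 lies elsewhere. 326015 and 326016 thus stand side by side and went in opposite directions in EcM against FLM at 14 dpi. How reads of similar clitocypin copies were divided between them is not known, so levels of single copies are uncertain to that extent.

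The other 4 peptidase inhibitors were 2 gene models of inhibitor family I9, which is known for blocking subtilisin-like serine proteases, and 2 best matches of cospins, serine protease inhibitors of family I66 known from the ink cap *Coprinopsis cinerea*. In EcM against FLM at 14 dpi 2 of 4 were higher and 1 was lower, where 4.03% of all gene models were called as higher and 2.77% as lower. The I9 gene model 476306 had 119, 117 and 131 CPM in EcM, against 6.49, 7.59 and 13.6 CPM in FLM (log2 fold change 3.74 ± 0.34, adjusted p = 6.39e-09). 476306 was also called in ExM against FLM, at 40.5 and 37.6 CPM in ExM (2.09 ± 0.35, adjusted p = 0.0109). The other I9 gene model, 303579, was called in 0 of the 25 comparisons by edgeR and by DESeq2. DESeq2 gave it a log2 fold change of 0.80 in EcM against FLM at 14 dpi (adjusted p = 1.74e-10), too small for a call. The study named an I9 inhibitor among genes grouped by their regulation in EcM at 14 dpi in these libraries. Calls of I9 gene models on that day may thus not be independent evidence.

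The cospin match 295829 was the most abundant of the inhibitors in CPM. It had 1269, 1397 and 1890 CPM in EcM at 14 dpi, against 235, 294 and 172 CPM in FLM (log2 fold change 2.70 ± 0.67, adjusted p = 0.00308). The other cospin match, 674342, was rare, with 0.350, 0.379 and 0.400 CPM in EcM (8, 5 and 7 counts), against 0.995, 0.930 and 0.879 CPM in FLM (23, 31 and 19 counts). These counts lie not far above the floor of 3, and 674342 was lower in EcM (log2 fold change -1.31 ± 0.48, adjusted p = 0.0363).

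Clitocypins are known to act on peptidases of families C1 and C13, of which the study's annotation held 4 gene models. The legumain gene model 631723, of family C13, had 21.8, 23.6 and 25.9 CPM in EcM at 14 dpi, against 25.2, 28.1 and 29.2 CPM in FLM, and neither edgeR nor DESeq2 called it in the 25 comparisons, none of which had an unadjusted p under 0.05. The papain-family gene model 701323, of family C1, had 9.17, 7.96 and 9.36 CPM in EcM at 14 dpi, against 19.2, 18.1 and 17.4 CPM in FLM. It was lower in EcM without overlap (log2 fold change -1.04 ± 0.14, adjusted p = 1.78e-06), and it also fell from 3 to 7 dpi in EcM, ExM and FLM.

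One bleomycin hydrolase gene model, 635298 of family C1, was higher along with 293826. Bleomycin hydrolases are cytoplasmic cysteine peptidases related to papain. 635298 had 231, 254 and 181 CPM in EcM at 14 dpi, against 15.1, 17.6 and 23.7 CPM in FLM (log2 fold change 3.56 ± 0.38, adjusted p = 9.59e-08) and 17.1 and 14.3 CPM in ExM (3.82 ± 0.46 for EcM against ExM, adjusted p = 1.53e-06). Its difference between EcM and FLM was still called at 21 dpi (1.47 ± 0.35, adjusted p = 0.00187), where that of 293826 was not, although a difference between these gene models was not tested. The related 708971 was called by neither edgeR nor DESeq2 in the 25 comparisons, with an unadjusted p under 0.05 in 11 of them. Such p-values were common: 467 to 6897 of the 15533 tested gene models had one in a single comparison.

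Of 18 other cysteine peptidases 17 were tested. In EcM against FLM 601558 was higher at 7 dpi (log2 fold change 1.61, adjusted p = 0.0131), and edgeR called 0 at 3, 14 and 21 dpi. An unadjusted p under 0.05 was found for 4, 7 and 6 of them on these days, and DESeq2 called 1 at 3 dpi and 0 at 14 and 21 dpi. Among all 15533 tested gene models, 3010, 6279 and 6897 had an edgeR p that low on these days. With 1.93, 3.92, 6.8 and 5.63% of all gene models called at 3, 7, 14 and 21 dpi, the counts called among the 17 are near the share over all gene models. Their median log2 fold change at 14 dpi was 0.26, against -0.0094 over all gene models.

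**Figure D5:**
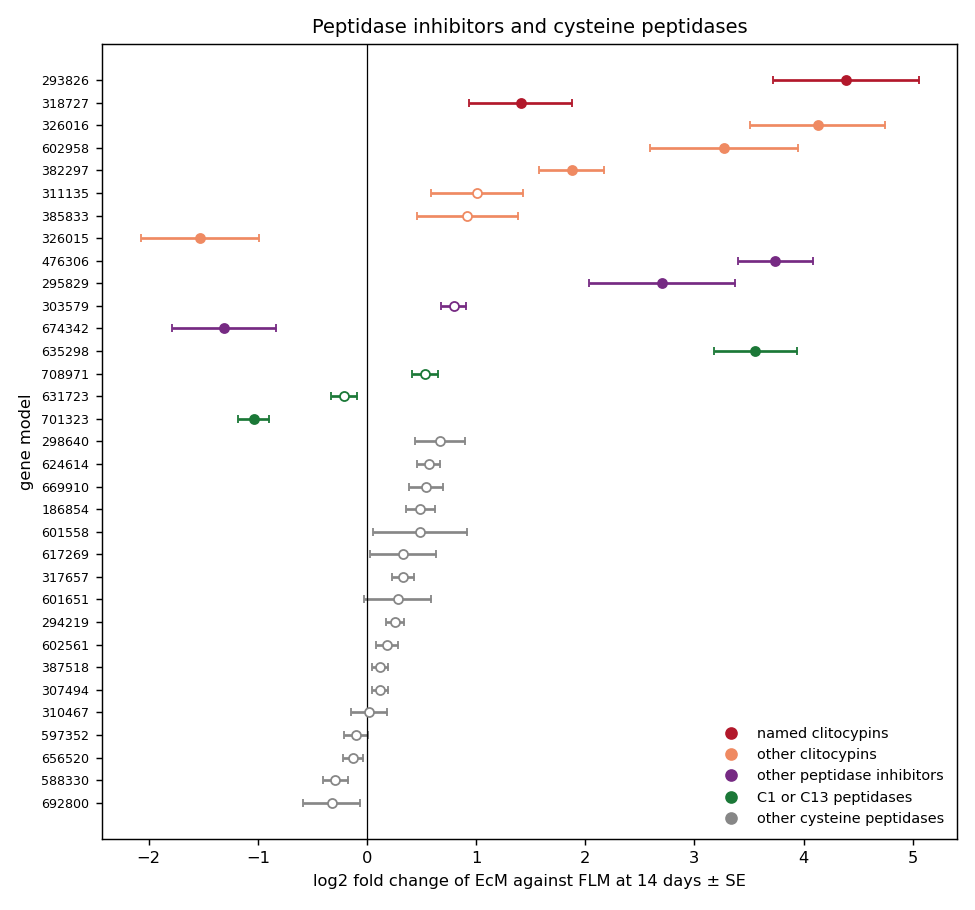
Log2 fold changes with standard errors of EcM against FLM at 14 dpi for the named pair, the other clitocypins, the other peptidase inhibitors, the C1 or C13 peptidases and the other cysteine peptidases, from top to bottom, 1 gene model a line. Filled points passed the test, open points did not. The clitocypins range between -1.53 for 326015 and 4.39 for 293826.

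Over the 13 group means of log2 CPM, 293826 and 318727 correlated with a Pearson r of 0.747. The gene models most like 293826 among 12490 candidates were 314198 (r = 0.968), 254728, an amino acid permease (0.965), 396183, a WD40 repeat protein (0.963), 315739 (0.962) and 673093 (0.961). Clitocypin 326016 came 21st in that order (0.948). For 318727 they were 628067 (r = 0.985), 293300 (0.975), 190400 (0.973), 320108 (0.958) and 182815, a lipase (0.957). By Spearman's rho, which uses only the order of the groups, these ranked further down, from 60 for 182815 to 1931.5 for 190400. The r does not weigh the size of a change. Group means ran from 1.29 to 341 CPM for 293826, but from 26.7 to 52.8 CPM for 314198, highest in EcM at 21 dpi. Those of 673093 ran from 33.2 to 1259 CPM and were highest in EcM at 14 dpi. For 318727 they ran from 3.10 to 190 CPM, and for 190400 from 160 to 266 CPM. The groups share culture age, and no test was made on these correlations.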

How the data were processed

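RNA-seq libraries of 37 *L. bicolor* samples in 13 groups were used, with group, day and replicate number taken from the sample labels. The authors made stranded mRNA libraries, trimmed the reads and mapped them with CLC Genomics Workbench to the transcripts of the second *L. bicolor* genome release of the Joint Genome Institute. The submitters' processing notes name DESeq2. The deposited raw read counts are whole numbers per gene model, not normalized by the authors, and were used for all tests. The deposited RPKM values, reads per kilobase of transcript scaled to library size by the authors, were used to derive transcript lengths and for the order of groups. Reads were allowed several hits, and the authors determined both unique and total read numbers for a transcript. Which of these the deposited counts are is not given in the sources used here, so counts of similar clitocypins are uncertain, and poplar reads could be counted where they fit a fungal sequence. The members and lists were chosen with earlier results of these data known.

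Tests were run in R 4.3.3 with edgeR 4.0.16, which rests on limma 3.58.1 (filterByExpr by group with a minimum count of 10 and total of 15, TMM, robust quasi-likelihood F-test, two-sided, 1 coefficient per group over all 37 libraries, so that small groups shared 1 estimate of the spread). The 25 contrasts and the threshold are given in the text. Standard errors were derived from the F values. In a simulation of EcM against FLM at 14 dpi on 15316 gene models, 98.5% of 200 changed gene models were recovered with 1 false call. The share is for these 200 gene models together. The simulation drew counts with the spread that the fit had estimated, and every group but EcM at 14 dpi had the same means. All planted changes exceeded the log2 threshold of a call and were set in gene models that were not rare. No outlying libraries were simulated, so the result does not show how reliable calls are in the real libraries. Recovery of small changes or of rare transcripts by themselves, or in other comparisons, was not tested. Totals were 13.8 to 36.8 megacounts. The floor of 3 counts covers counting error only. Replicates of a group always differed by more than sampling noise (lowest chi-square 4.59 for each degree of freedom). Gene models named besides the lists were the 5 with the highest r over group means of log2 CPM (prior count 2, mean log2 CPM of at least 1).

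Alternatives were the median-of-ratios size factors, DESeq2 1.42.0, no filter, only the libraries compared, a replicate block and leaving out each library. Same-numbered libraries deviated together (every correlation over 0.1) in 2 of 22 pairings of groups, EcM with ExM at 21 dpi (0.276, 0.368 and 0.332) and ExM at 7 with 3 dpi (0.599, 0.347 and 0.194), so a block within these libraries was added after seeing the data. Names and gene order came from a RefSeq table of assembly V1.0. Its build is not that of the counts, and no coordinates are given. No sequences were used here.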

Additional observations from a re-analysis of the deposited data

Results flagged for a closer look

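Several gene models were picked out because the difference of EcM or ExM from FLM itself changed between days in a called interaction of the edgeR fit. Values are differences of log2 fold changes with SE, and the adjusted p-values come from edgeR. For the EcM effect at 14 against 3 dpi they were 3.07 ± 0.96 for 293826 (adjusted p = 0.0286), 4.99 ± 0.87 for 326016 (adjusted p = 0.000278), 2.11 ± 0.48 for 382297 (adjusted p = 0.00336), 3.95 ± 0.57 for 476306 (adjusted p = 2.68e-05), 3.13 ± 0.91 for 295829 (adjusted p = 0.0193) and 4.49 ± 0.54 for 635298 (adjusted p = 2.47e-06). All 6 had a larger difference at 14 dpi. They were picked because they were called, out of the 34 gene models of the pair and the lists. Over all gene models 5.94% were called in this interaction, 3.14% as higher. The study chose 293826, 326016 and 382297 in part by their expression in these libraries, so their direction is not independent evidence. That of the I9 gene model 476306 may not be either, as the study named an I9 inhibitor among genes grouped by these libraries. All 6 values contain the difference at 14 dpi.

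For the EcM effect at 21 against 14 dpi the values were -4.28 ± 0.86 for 293826 (adjusted p = 0.00445), -4.17 ± 0.80 for 326016 (adjusted p = 0.00346), -2.24 ± 0.40 for 382297 (adjusted p = 0.00186), -3.58 ± 0.45 for 476306 (adjusted p = 4.6e-05) and -2.09 ± 0.50 for 635298 (adjusted p = 0.0152). For the ExM effect at 21 against 14 dpi they were -2.46 ± 0.62 for 311135 (adjusted p = 0.0219), -2.09 ± 0.42 for 382297 (adjusted p = 0.00421) and -1.87 ± 0.46 for 476306 (adjusted p = 0.0195). Over all gene models 1.58% were called for EcM and 1.15% for ExM, 1.31% and 0.67% as lower. The EcM values contain the difference at 14 dpi, so they are not independent evidence either. Both interactions at 21 dpi rest on the 3 FLM libraries of that day, of which replicate 2 was most like a library of 14 dpi.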

How the results depend on the processing

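The median-of-ratios scaling, no filter on low counts and the replicate block changed no call of the pair in the 25 comparisons, nor did the block within only the libraries compared (log2 fold changes -0.11 and -1.51 in EcM against ExM at 21 dpi and 3.85 and -0.21 in ExM at 7 against 3 dpi, for 293826 and 318727 in this order). DESeq2 added 293826 in ExM against FLM at 7 dpi (2.16). A fit to only the libraries compared ended 5 calls: 318727 at 21 dpi in ExM against FLM (1.82), in EcM against ExM (-1.44) and in EcM at 21 against 14 dpi (2.48), and 293826 in EcM at 7 against 3 dpi (2.54) and in the EcM effect at 21 against 14 dpi (-4.31). It added 4, namely 293826 in ExM against FLM at 3 dpi (-1.17) and EcM at 21 against 14 dpi (-1.36), and 318727 in EcM against ExM at 14 dpi (1.14) and the EcM effect at 14 against 3 dpi (1.22). The cause was not tested.

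Leaving out 1 library at a time gave these log2 ranges where a call or a direction changed. For 318727 they were 1.19 to 1.55 in EcM against FLM at 14 dpi, -0.023 to 0.91 at 21 dpi, -0.21 to 0.082 in ExM against FLM at 7 dpi, -0.11 to 0.59 at 14 dpi, -1.82 to -1.02 in EcM against ExM at 21 dpi, 1.22 to 1.58 in EcM at 14 against 7 dpi, and -0.85 to 0.086 in FLM at 3 dpi against day 0. For 293826 they were -0.38 to 1.06 in EcM against FLM at 21 dpi, -0.13 to 0.40 and -0.28 to 1.17 in ExM against FLM at 14 and 21 dpi, -0.28 to 0.12 in EcM against ExM at 21 dpi, -0.45 to 0.36 and 2.73 to 3.26 in ExM at 14 against 7 and 21 against 14 dpi, -2.30 to 1.06 and 1.72 to 2.01 in FLM at 3 dpi against day 0 and 14 against 7 dpi, 2.74 to 3.50 in the EcM effect at 14 against 3 dpi, and -0.44 to 1.00 in the ExM effect at 21 against 14 dpi. Every reversed value was of a difference that had not been called.

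Counts over all gene models moved by over 1.5 times in only the libraries compared, to 149 and 278 for EcM against FLM at 3 and 7 dpi (300 and 609 in the fit to all libraries), 100, 173, 68 and 142 for ExM against FLM at 3, 7, 14 and 21 dpi (236, 314, 7 and 257), 0 for EcM against ExM at 3 dpi (6), 0 for FLM at 3 dpi against day 0 (7) and 155 for the EcM effect at 21 against 14 dpi (246). DESeq2 called 21, 15 and 19 for ExM against FLM at 14 dpi, EcM against ExM at 3 dpi and FLM at 3 dpi against day 0. Leaving out 1 library at a time moved the counts by over 1.5 times to 112 to 370 and 263 to 700 for EcM against FLM at 3 and 7 dpi, 71 to 314, 126 to 428, 4 to 6 and 191 to 571 for ExM against FLM at the 4 days, 2 to 21 and 22 to 45 for EcM against ExM at 3 and 7 dpi (6 and 47), 208 to 365 for EcM at 21 against 14 dpi (353), 281 to 784 and 384 to 647 for ExM at 14 against 7 and 21 against 14 dpi (629 and 602), 2 to 177, 119 to 437 and 611 to 1450 for FLM at 3 against 0, 7 against 3 and 21 against 14 dpi (7, 220 and 880), and 116 to 786 and 70 to 480 for the EcM and ExM effects at 21 against 14 dpi (246 and 179). The values 571, 1450, 786 and 480 came without FLM replicate 2 of 21 dpi. By RPKM, 11 of 13 groups kept their rank for 293826 and 13 for 318727. Of the 5 gene models most like each, 4 and 0 were among the first 50 by Spearman's rho, and 5 and 3 by r over libraries.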
